A study of Homo sapiens with 8 samples.

Results

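The DNA replication machinery was followed here as 43 genes whose products license origins, open the helix, copy DNA, supply nucleotides or repackage the new strands. The genes were taken by symbol from a list of replication factors, and all 43 were measured among the 18404 genes of the arrays, each through its brightest probe set. Total RNA came from NCI-H1299 and NCI-H2009, established human lung cancer cell lines called H1299 and H2009 here, grown in RPMI medium with serum. Every culture was infected for 2 days with lentivirus that expressed a short hairpin RNA and then kept in puromycin for 2 days, and RNA was taken on day 4, so the control arrays share infection and selection with the others. In each line, 2 arrays carried hairpins against PTK7, named PTK7-1 and PTK7-2, and 2 carried control hairpins against GFP and luciferase (LUC), which human cells do not encode. That gives 8 arrays in 4 groups of 2, with 1 array for each hairpin in each line. PTK7 is a catalytically inactive receptor of the tyrosine kinase family with roles in Wnt signalling and planar cell polarity. The labels do not mention repeated cultures, and p-values here cover only the spread between single arrays. In fits without a term for the hairpin, that spread mixes hairpin and array, since no hairpin was repeated within a line. Where hairpin and line were both fitted, the spread instead includes any change of a hairpin's effect from line to line.

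Chromosomes are copied in steps. In G1 the origin recognition complex, CDC6 and CDT1 load the MCM2-7 helicase onto DNA, and at S-phase entry the CDC7-DBF4 kinase, CDC45 and GINS switch it on. Polymerase alpha-primase starts each strand, polymerases epsilon and delta extend it with the PCNA clamp that the RFC complex loads, and FEN1 and LIG1 finish the lagging strand. Many of these genes are transcribed by E2F factors as cells commit to S phase, so their RNA levels are widely read as a mark of proliferating cells, lung cancer cells included.

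The promoters of the 5 replication genes whose PTK7 arrays lay below both control arrays in each line are shown so that their E2F-type sequences can be set beside their values; they were picked for those values. Each window of 210 bases runs from position -190 to 20 relative to the RefSeq start on GRCh38.p14, written 5′ to 3′ on the gene's strand. MCM6 lies at chr2:135876424-135876633 on the minus strand, MCM7 at chr7:100101378-100101587 on the minus strand (1 of 3 listed starts), GINS3 at chr16:58392281-58392490 on the plus strand, POLE2 at chr14:49688195-49688404 on the minus strand and CHAF1B at chr21:36385202-36385411 on the plus strand. Capitals mark the letters TTTCGCGC, TTTGGCGC, TTTCCCGC or TTTGCCGC on either strand.
MCM6: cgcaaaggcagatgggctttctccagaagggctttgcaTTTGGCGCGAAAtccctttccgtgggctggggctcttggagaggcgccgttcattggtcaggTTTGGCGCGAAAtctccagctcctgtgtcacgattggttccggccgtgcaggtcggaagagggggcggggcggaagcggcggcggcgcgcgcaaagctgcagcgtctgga
MCM7: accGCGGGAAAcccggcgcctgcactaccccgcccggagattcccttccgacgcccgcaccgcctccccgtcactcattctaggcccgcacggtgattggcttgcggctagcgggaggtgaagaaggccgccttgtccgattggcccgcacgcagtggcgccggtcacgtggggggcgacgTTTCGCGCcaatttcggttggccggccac
GINS3: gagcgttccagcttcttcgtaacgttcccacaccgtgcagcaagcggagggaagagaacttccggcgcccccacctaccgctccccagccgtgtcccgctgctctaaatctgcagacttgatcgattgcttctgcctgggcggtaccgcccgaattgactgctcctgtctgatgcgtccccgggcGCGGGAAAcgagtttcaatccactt
POLE2: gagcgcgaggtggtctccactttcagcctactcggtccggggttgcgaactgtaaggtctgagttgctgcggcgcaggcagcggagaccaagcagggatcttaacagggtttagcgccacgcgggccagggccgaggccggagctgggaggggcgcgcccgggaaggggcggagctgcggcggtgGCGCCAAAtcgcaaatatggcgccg
CHAF1B: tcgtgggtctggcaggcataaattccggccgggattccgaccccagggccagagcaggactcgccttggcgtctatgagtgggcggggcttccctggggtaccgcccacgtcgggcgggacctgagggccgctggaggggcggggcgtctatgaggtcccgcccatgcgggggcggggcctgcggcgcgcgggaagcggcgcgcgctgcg
In MCM6, both capital stretches are an overlapping pair of matches, so 4 matches fall in 2 places. MCM7 has 2 matches, GINS3 and POLE2 have 1 each, and the CHAF1B window has none. The MCM7 start shown was picked as the one with the most matches, and the other listed MCM7 starts had 0. Of the 43 genes, 38 had a promoter entry, and 20 of these (52.6%) held a match in at least 1 listed promoter, against 5.51% of the 14230 array genes with an entry. By single promoters, 21 of 49 held one, against 1164 of 35116 (3.31%) in the whole table. The letters CCAAT, searched on both strands as well, were present for 23 of the 38 replication genes (60.5%), against 42.22% of array genes. The letters TTTGAA, the CHR element of many cell-cycle genes, were present for 3 of the 38 (7.9%), against 15.73% of array genes. A match is a description of these letters and not a shown binding site. In H2009, the median PTK7 minus control difference was -0.16 (log2) over the 20 replication genes with an E2F-type match and -0.13 over the 18 without. In H1299 the order was the other way, with medians of 0.00 with a match and -0.04 without, and averaged over both lines the medians were -0.08 and -0.06. MCM4, CCNE2, RPA2, MCM5 and GINS4 had no entry that was used.

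The PTK7 probe set itself read 5.63 under PTK7-1 and 5.53 under PTK7-2 in H1299, against 5.73 under GFP and 6.03 under LUC, and 5.63 and 5.94 under the same PTK7 hairpins in H2009, against 6.64 and 6.86 under the controls. Both PTK7 arrays lay below both control arrays in each line, with a gap between the groups of 0.10 in H1299 and 0.70 in H2009 at the nearest arrays. The limma differences were -0.30 ± 0.17 in H1299 (adjusted p = 0.804) and -0.96 ± 0.17 in H2009 (adjusted p = 0.222), so the targeted gene did not pass the threshold in either line. All values are log2 expression values, and errors after ± are standard errors of the limma fit unless marked SD. Pearson's r between the 2 arrays of a group ran from 0.981 to 0.997 across genes. KRT18, an epithelial keratin, read 10.56 to 11.61 over the arrays of both lines, while the epithelial adhesion gene EPCAM read 3.32 to 3.58 in H1299 and 11.17 to 11.30 in H2009. Of the 8 epithelial genes, KRT18 alone was not called lower in H1299 under the control hairpins (-0.32, limma adjusted p = 0.532). EPCAM, CDH1, KRT8, KRT19, CLDN4, CDH3 and ELF3 were called, with differences of -7.85 to -2.24. The median of the 8 genes was 4.5 to 4.8 on the H1299 arrays and 11.2 to 11.3 on the H2009 arrays. Of the 6 leukocyte genes measured, PTPRC, CD3E, CD14 and LYZ read 2.78 to 4.70 on all 8 arrays. ITGAM read 4.90 to 5.36 in H1299 and 4.24 to 4.51 in H2009, and CD68, a lysosomal protein of macrophages, read 9.59 to 10.48 in H1299 and 7.76 to 8.63 in H2009. Under the control hairpins limma called both higher in H1299, ITGAM by 0.88 (adjusted p = 0.00636) and CD68 by 2.27 (adjusted p = 0.00202), and their part in the differences between the lines was not tested. The 6 endothelial genes read 3.07 to 4.73, and the 7 fibroblast genes 2.58 to 6.93. The 5 lung adenocarcinoma genes measured read 3.65 to 5.64 in H1299 and 3.94 to 8.36 in H2009. Under the control hairpins limma called NKX2-1, NAPSA and SLC34A2 lower in H1299, at -2.83, -1.23 and -1.33. SFTPB and SFTPC went the other way, at 0.29 and 0.15, and were not called (limma adjusted p = 0.203 and 0.519).

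Over both lines together, PTK7 hairpins moved no replication gene past the threshold, and the shift of the group as a whole was small. None of the 43 was called by limma at an adjusted p under 0.05, and none of the 18404 genes was (0%). At an unadjusted p under 0.05, 4 were lower under PTK7 hairpins (MCM6, POLE2, POLA1 and GINS3), or 9.30%, against 5.14% of all genes, and 0 were higher, against 4.74%. Both directions together gave 4 of 43, against 9.88% of all genes. With the hairpin as a replicate block, 0 of 43 were still called, and the count at an unadjusted p under 0.05 became 12 of 43, or 27.9%, against 15.9% of all genes. The block takes the spread between the hairpins of a target out of the error. Its p-values for PTK7 against control hairpins therefore do not cover that spread. The averaged difference was below 0 for 29 of 43 (67.4%), against 44.2% of all genes, with a median of -0.09, against 0.02 over all genes. That median ran from -0.16 to -0.01 when single arrays were left out. All 4 PTK7 arrays lay below their line's control mean for 9 of 43 (20.9%), against 8.97% of all genes, and these were MCM3, MCM6, MCM7, GINS3, POLA1, POLE2, FEN1, CHAF1A and CHAF1B. All 4 lay above it for 0 of 43, against 11.5%. In RNA of whole cultures, fewer cells in S phase and less of an RNA per cell cannot be told apart.

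**Figure D1:**
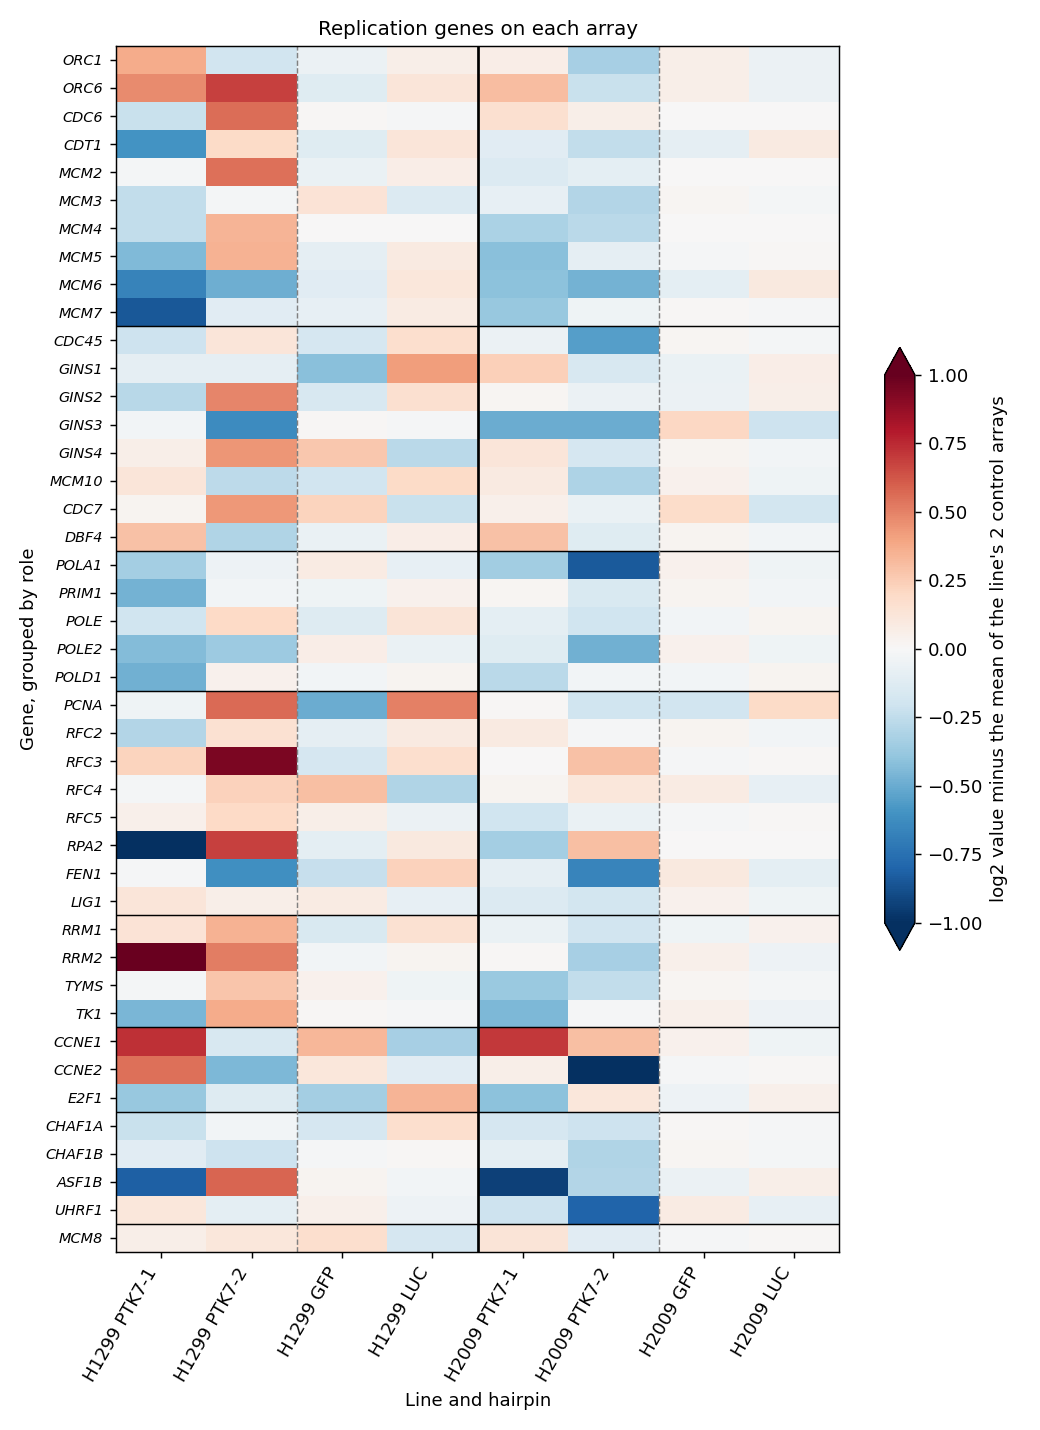
Each row is a replication gene, ordered by role, and each column an array, PTK7 hairpins left of control hairpins within each line. Colour gives the log2 value minus the mean of that line's 2 control arrays, from blue (below) to red (above). The MCM6 row is blue on all 4 PTK7 arrays, the H2009 PTK7-2 column is below the control mean for 37 of 43 genes, and the H1299 PTK7-2 column for 18 of 43.

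Among the 10 origin-licensing genes, 7 had an averaged difference below 0 (44.2% of all genes did) and the median was -0.14. MCM6, a subunit of the MCM2-7 helicase, read 8.42 under PTK7-1 and 8.60 under PTK7-2 in H1299, against 8.98 under GFP and 9.20 under LUC. In H2009 it read 8.68 under PTK7-1 and 8.61 under PTK7-2, against 8.98 under GFP and 9.19 under LUC. Every PTK7 array of either line was below every control array of either line, by 0.30 at the nearest pair. The averaged difference was -0.51 ± 0.10, or 1.43-fold lower (limma unadjusted p = 0.00130, adjusted p = 0.190). In the limma fit with the replicate block, whose error leaves out the spread between hairpins, the adjusted p for MCM6 was 0.0709. Leaving out any single array kept the averaged MCM6 difference between -0.57 and -0.46, and limma's adjusted p then ran from 0.137 to 0.817. MCM7, another subunit of the same ring, read 10.07 under PTK7-1 and 10.82 under PTK7-2 in H1299, against 10.84 under GFP and 11.01 under LUC. In H2009 it read 9.14 and 9.48 under PTK7-1 and PTK7-2, against 9.54 and 9.51 under GFP and LUC. The MCM7 PTK7-2 arrays thus lay within 0.03 of the lower control in each line, and the PTK7-1 arrays lay well under it. The averaged MCM7 difference was -0.35 ± 0.17 (limma adjusted p = 0.581).

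The other helicase subunits had smaller averaged differences: 0.07 for MCM2, -0.16 for MCM3, -0.12 for MCM4 and -0.15 for MCM5. In H2009 each of these 4 had both PTK7 arrays below both controls, by differences of -0.12, -0.19, -0.29 and -0.26. In H1299 each of these 4 was lower under PTK7-1 than under PTK7-2, and both PTK7 arrays lay below the control mean for MCM3. MCM2 read 8.70 under PTK7-1 and 9.27 under PTK7-2 in H1299, against 8.65 and 8.78 under GFP and LUC. MCM4 read 9.29 under PTK7-1 and 9.88 under PTK7-2 there, against 9.53 and 9.54 under GFP and LUC. Among the loading factors, ORC6, the smallest subunit of the origin recognition complex, read 7.57 under PTK7-1 and 7.79 under PTK7-2 in H1299, against 6.98 under GFP and 7.23 under LUC. In H2009 ORC6 read 7.55 and 7.02 under PTK7-1 and PTK7-2, on both sides of the controls at 7.30 and 7.18. The ORC6 difference was 0.58 ± 0.20 in H1299 (limma adjusted p = 0.568) and 0.04 ± 0.20 in H2009. CDT1 averaged -0.19, CDC6 averaged 0.14 and ORC1 averaged -0.02.

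Of the 8 genes that activate the helicase, 4 had an averaged difference below 0 (44.2% of all genes did), with a median of 0.01. GINS3, a subunit of the GINS complex that joins CDC45 and the MCM ring, read 7.75 under PTK7-1 and 7.15 under PTK7-2 in H1299, against 7.79 under GFP and 7.77 under LUC. In H2009 GINS3 read 6.61 under each PTK7 hairpin, against 7.32 under GFP and 6.91 under LUC. Its groups did not overlap in either line, though the H1299 PTK7-1 array sat only 0.02 below LUC. The averaged difference was -0.41 ± 0.16 (limma adjusted p = 0.435). The other GINS subunits stayed near 0, with averaged differences of -0.02 for GINS1, 0.04 for GINS2 and 0.11 for GINS4. CDC45 averaged -0.17, MCM10, which binds the active helicase, -0.09, CDC7 0.11 and its activating subunit DBF4 0.04.

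All 5 polymerase and primase genes had an averaged difference below 0 (44.2% of all genes did), with a median of -0.18 and a range from -0.39 to -0.07. In H1299 their median relative to the control mean was -0.43 under PTK7-1, with 5 below it. Under PTK7-2 it was -0.03 there, with 3 below. POLE2, the accessory subunit of polymerase epsilon, read 8.09 under PTK7-1 and 8.16 under PTK7-2 in H1299, against 8.59 under GFP and 8.46 under LUC. In H2009 POLE2 read 7.98 and 7.62 under PTK7-1 and PTK7-2, against 8.14 and 8.06 under GFP and LUC. The PTK7 arrays were the lower ones in each line, by at least 0.30 in H1299 and by 0.08 at the nearest pair in H2009. The averaged POLE2 difference was -0.35 ± 0.11, or 1.27-fold lower (limma adjusted p = 0.344). POLA1, the catalytic subunit of polymerase alpha, read 8.09 under PTK7-1 and 8.38 under PTK7-2 in H1299, against 8.51 under GFP and 8.35 under LUC. In H2009 POLA1 read 8.24 and 7.76 under PTK7-1 and PTK7-2, against 8.64 and 8.55 under GFP and LUC. Its groups overlapped in H1299 and were apart in H2009, where the difference was -0.59 ± 0.19 (limma adjusted p = 0.519), or from -0.84 to -0.35 when single arrays were left out. The averaged POLA1 difference was -0.39 ± 0.13 (limma adjusted p = 0.394), and POLD1, PRIM1 and POLE averaged -0.18, -0.16 and -0.07.

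**Figure D2:**
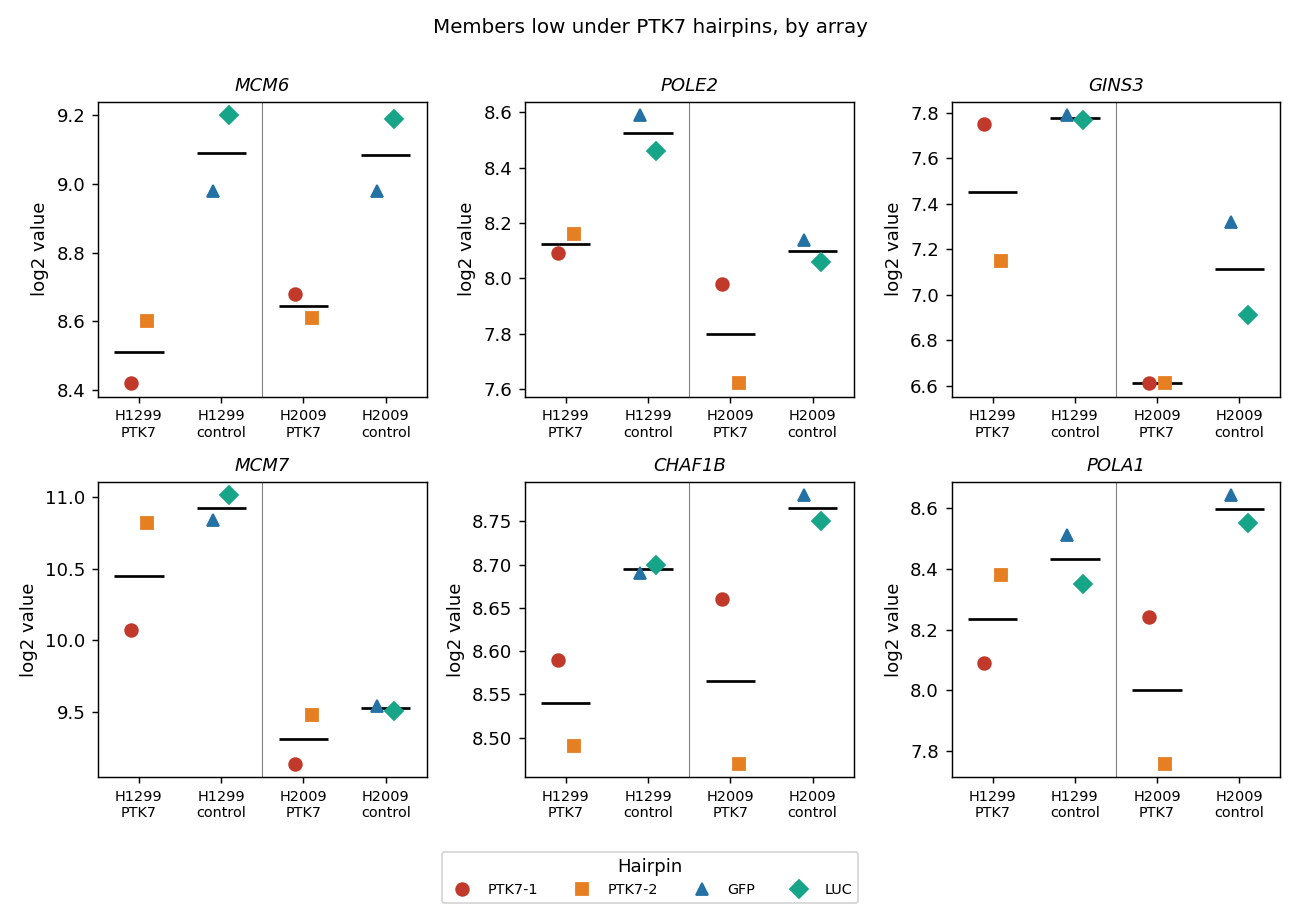
Points are single arrays, on a log2 axis whose range differs between panels, for MCM6, POLE2, GINS3, MCM7, CHAF1B and POLA1, with PTK7 hairpins left of controls in each line and marker shape for the hairpin. Bars are group means of 2 arrays. In MCM6 and CHAF1B all 4 PTK7 arrays lie below all 4 control arrays, with a gap of 0.30 at the nearest pair in MCM6 and of 0.03 in CHAF1B.

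The 8 genes of the clamp, its loader, the single-strand binding protein RPA and Okazaki fragment joining showed no common direction, with 5 below 0, 3 above 0 and a median of -0.01. PCNA averaged 0.09 ± 0.17, the loader subunits RFC2, RFC3, RFC4 and RFC5 averaged -0.01, 0.36, 0.09 and 0.00, and RPA2 averaged -0.09. FEN1, the flap nuclease of the lagging strand, averaged -0.34 and LIG1, the ligase that follows it, -0.03. RFC3 read 9.29 under PTK7-1 and 10.00 under PTK7-2 in H1299, against 8.89 under GFP and 9.24 under LUC. In H2009 RFC3 read 9.65 and 9.94 under PTK7-1 and PTK7-2, against 9.64 and 9.65 under GFP and LUC. Its PTK7 arrays lay above the controls in H1299 and were level with or above them in H2009.

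The 4 nucleotide supply genes had medians of opposite sign in the lines, with a PTK7 minus control difference of 0.19 in H1299 and -0.19 in H2009, where all 4 were below 0. RRM2, the small subunit of ribonucleotide reductase that is limiting in S phase, read 10.09 under PTK7-1 and 9.60 under PTK7-2 in H1299, against 9.07 under GFP and 9.13 under LUC. In H2009 RRM2 read 8.82 and 8.48 under PTK7-1 and PTK7-2, against 8.86 and 8.76 under GFP and LUC. The PTK7 arrays were far above the controls in H1299 and overlapped them in H2009. The RRM2 difference was 0.75 ± 0.19 in H1299, or 1.68-fold higher (limma adjusted p = 0.404), and -0.16 ± 0.19 in H2009. TYMS, which makes thymidylate, read 10.47 under PTK7-1 and 10.77 under PTK7-2 in H1299, against 10.53 under GFP and 10.44 under LUC. In H2009 TYMS read 9.64 and 9.76 under PTK7-1 and PTK7-2, against 10.03 and 9.99 under GFP and LUC. The TYMS groups overlapped in H1299 and were apart in H2009, with the PTK7 arrays the lower ones. RRM1, the large reductase subunit, averaged 0.06, and TK1, the salvage kinase for thymidine, averaged -0.13.

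The S-phase entry regulators had no shared direction. CCNE1, a cyclin that activates CDK2 in late G1, averaged 0.40, its paralogue CCNE2 averaged -0.39, and the transcription factor E2F1 averaged -0.20. The 4 genes of chromatin assembly and maintenance methylation all had averaged differences below 0 (44.2% of all genes did), with a median of -0.21. CHAF1A and CHAF1B, subunits of the CAF-1 histone chaperone, averaged -0.16 and -0.18, the histone chaperone ASF1B averaged -0.36, and UHRF1, which recruits DNA methyltransferase to new strands, averaged -0.25. CHAF1B read 8.59 under PTK7-1 and 8.49 under PTK7-2 in H1299, against 8.69 under GFP and 8.70 under LUC. In H2009 it read 8.66 and 8.47 under PTK7-1 and PTK7-2, against 8.78 and 8.75 under GFP and LUC. The separation in CHAF1B was complete in both lines but small, and limma did not call it. MCM8, a related helicase of recombination repair rather than of licensing, averaged 0.05.

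More replication genes lay low under PTK7 hairpins in H2009 than in H1299. In H2009, 34 of 43 had a difference below 0 (79.1%), against 43.9% of all genes, and the median was -0.15, against 0.03 over all genes. Leaving out single arrays gave counts of 26 to 37 and medians of -0.19 to -0.09. In H1299, 22 of 43 did (51.2%), against 50.6% of all genes, with a median of -0.01. Both PTK7 arrays lay below both control arrays for 20 of 43 in H2009 (46.5%), against 18.9% of all genes, and for 5 of 43 in H1299 (11.6%), against 16.1%. The H2009 set held CDT1, MCM2, MCM3, MCM4, MCM5, MCM6, MCM7, CDC45, GINS3, POLA1, POLE, POLE2, RFC5, LIG1, RRM1, TYMS, CHAF1A, CHAF1B, ASF1B and UHRF1. The gap at the nearest arrays ran from 0.02 for CDT1 to 0.31 for POLA1. The opposite separation was seen for CDC6 and CCNE1 in H2009, 2 of 43 (4.65%), against 26% of all genes. In H1299 it was seen for ORC6, RFC3 and RRM2, 3 of 43 (6.98%), against 15.6%. MCM6, MCM7, GINS3, POLE2 and CHAF1B were low in each line, 5 of 43 (11.6%), against 4.53% of all genes. High in each line were 0 of 43, against 4.93%. Separation high in H1299 and low in H2009 was seen for 0 of 43 (2.34% of all genes), and the reverse also for 0 of 43 (3.33%).

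These counts come with unequal spread between arrays. The SD between the 2 control arrays of H2009 had a median of 0.054 over the replication genes, against 0.071 over all genes, while that between the 2 PTK7 arrays of H1299 had a median of 0.308, against 0.152 over all genes. The part of this spread in the counts was not tested. No replication gene was called in H1299, against 0.00543% of all genes, and none in H2009, against 0%. At an unadjusted p under 0.05, limma gave 4 of 43 in H1299 (9.30%), against 7.48% of all genes, and 3 of 43 in H2009 (6.98%), against 7.98%. The H2009 count was 8 of 43 with the hairpin as a replicate block (18.6%), against 12.2% of all genes, and the error there leaves out the spread between hairpins. UHRF1 in H2009 read 8.93 under PTK7-1 and 8.34 under PTK7-2, against 9.23 under GFP and 9.06 under LUC, a difference of -0.51 ± 0.20 (limma adjusted p = 0.610), which ran from -0.80 to -0.21 when single arrays were left out. In H1299 UHRF1 read 8.99 and 8.79 under PTK7-1 and PTK7-2, against 8.93 and 8.83 under GFP and LUC, where the groups overlapped.

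Tested directly, the PTK7 minus control difference did not differ between the lines past the threshold for any replication gene (0 of 43, against 0% of all genes). At an unadjusted p under 0.05 limma gave RRM2 alone, 1 of 43 (2.33%), against 5.17% of all genes, and with the hairpin as a replicate block 4 of 43 (9.30%), against 7.78%. The RRM2 difference between the lines was 0.90 ± 0.27, H1299 minus H2009 (limma adjusted p = 0.877), followed by 0.44 ± 0.20 for TYMS and 0.53 ± 0.28 for ORC6 (limma adjusted p = 0.922 for each). The difference ran higher in H1299 for 31 of 43 (72.1%), against 45.3% of all genes, with a median of 0.15, against -0.03 over all genes. That median was 0.34 without the H1299 PTK7-1 array and 0.05 without the H1299 PTK7-2 array, and without the H1299 PTK7-2 array 19 of 43 ran lower in H1299, against 12 of 43 with it.

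**Figure D3:**
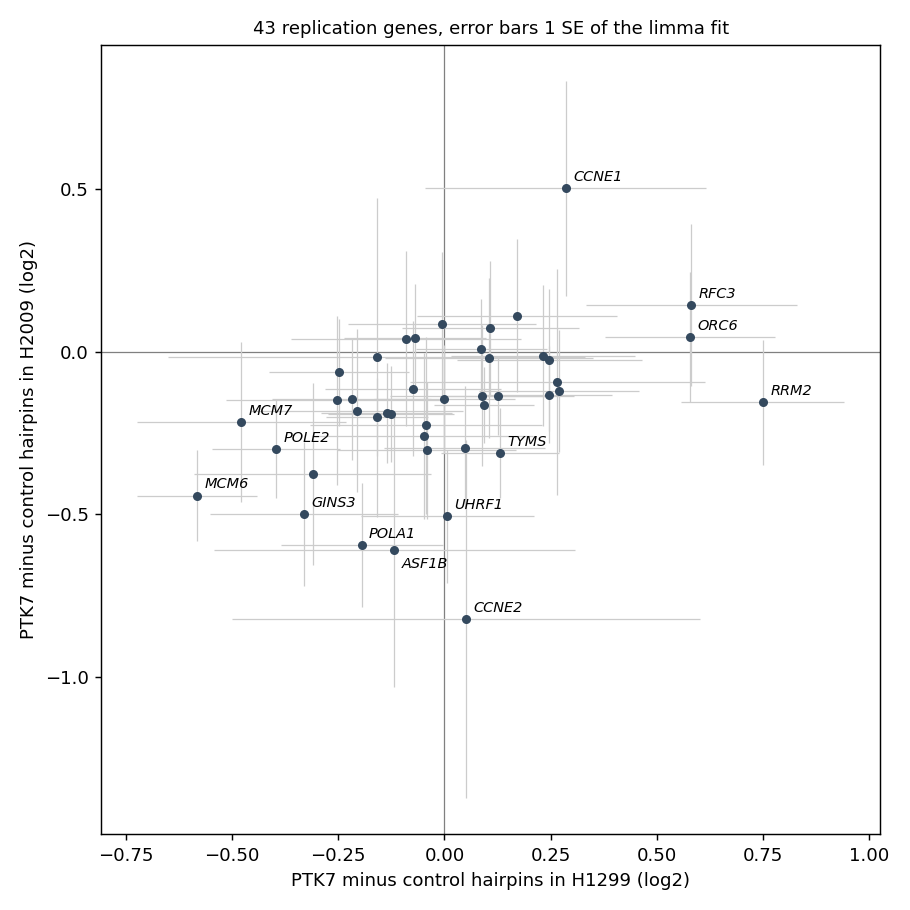
Each point is a replication gene, with its PTK7 minus control log2 difference in H1299 on the horizontal axis and in H2009 on the vertical axis, and bars of 1 SE. Most points lie below the horizontal line at 0 (34 of 43), while they divide 22 to 21 about the vertical line. RRM2 is farthest right at 0.75, and MCM6 is farthest left at -0.58.

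The PTK7 hairpins gave unlike values, and the order of their medians differed with the line. Gene by gene, the deviations of the PTK7 arrays from their group mean still correlated between the lines. Pearson's r was 0.72 over the 43 genes, against 0.41 over all genes. The median of the 43 genes relative to the line's control mean was -0.09 under PTK7-1 and 0.12 under PTK7-2 in H1299, and -0.09 under PTK7-1 and -0.19 under PTK7-2 in H2009. The GFP and LUC arrays stood at -0.04 and 0.04 in H1299 and at 0.02 and -0.02 in H2009. In H1299 28 of 43 lay below the control mean under PTK7-1 (65.1%), against 46.8% of all genes, and 18 of 43 under PTK7-2 (41.9%), against 53.5%. In H2009 26 of 43 lay below it under PTK7-1 (60.5%), against 48.7% of all genes, and 37 of 43 under PTK7-2 (86.0%), against 40.7%. The PTK7-1 array was below the PTK7-2 array for 31 of 43 in H1299 (72.1%), against 45.5% of all genes, but for 14 of 43 in H2009 (32.6%), against 59.8%. For 18 genes (41.9%), against 15.2% of all genes, PTK7-1 was the lower in H1299 and the higher in H2009, and among them were CDC6, CDT1, MCM3, CDC45, POLA1, PRIM1, POLE and PCNA. With a gap of any size counted, the reverse held for GINS3 only, 1 of 43 (2.33%), against 29.5% of all genes, and its H2009 arrays were level at the precision printed here. PTK7-1 was the lower in both lines for 13 of 43 (30.2%), against 30.3%, and the higher in both for 11 of 43 (25.6%), against 25%.

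Compared over both lines in a fit of hairpin plus line, PTK7-1 and PTK7-2 differed past the threshold for RPA2 and CCNE2, 2 of 43 (4.65%), against 3.73% of all genes. At an unadjusted p under 0.05 there were 13 of 43 (30.2%), against 18.3%, and 26 of 43 were lower under PTK7-1 (60.5%), against 54.5%. RPA2, the middle subunit of the single-strand binding protein, read 6.25 under PTK7-1 and 7.93 under PTK7-2 in H1299, with GFP at 7.15 and LUC at 7.35 between them. In H2009 RPA2 read 6.55 and 7.19 under PTK7-1 and PTK7-2, again with the controls between, both at 6.89. The RPA2 difference was -1.16 ± 0.23, or 2.23-fold lower under PTK7-1 (limma adjusted p = 0.0395). CCNE2, the second E-type cyclin, read 9.51 under PTK7-1 and 8.51 under PTK7-2 in H1299, with GFP at 9.06 and LUC at 8.84. In H2009 CCNE2 read 8.84 and 7.07 under PTK7-1 and PTK7-2, with GFP at 8.76 and LUC at 8.79. The CCNE2 difference was 1.38 ± 0.29, or 2.61-fold higher under PTK7-1 (limma adjusted p = 0.0483). The order of the hairpins was the same in both lines for each gene, with the controls between them. Both calls depended on single arrays: leaving out any of 6 of the 8 arrays ended the RPA2 call and any of 7 the CCNE2 call, and the differences then ran from -1.55 to -0.77 for RPA2 and from 0.84 to 1.93 for CCNE2. The count of called replication genes ran from 0 to 4 over those 8 fits.

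ASF1B read 8.63 under PTK7-1 and 10.03 under PTK7-2 in H1299, against 9.48 under GFP and 9.41 under LUC. In H2009 it read 8.73 and 9.37 under PTK7-1 and PTK7-2, against 9.60 and 9.72 under GFP and LUC. PTK7-1 gave the lowest ASF1B value in each line, and PTK7-2 lay above the controls in H1299 and below them in H2009. The PTK7-1 minus PTK7-2 difference for ASF1B was -1.02 ± 0.23, just outside the threshold (limma adjusted p = 0.0530). Further differences of PTK7-1 minus PTK7-2 at an unadjusted p under 0.05 were -0.64 for TK1, 0.50 for DBF4, -0.56 for MCM5, 0.59 for FEN1, 0.65 for CCNE1, -0.54 for MCM7, 0.48 for ORC1, -0.38 for POLD1, 0.39 for MCM10 and -0.50 for RFC3. MCM6 differed by -0.06 ± 0.14 between the hairpins.

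Against the controls, which both comparisons share, neither hairpin gave a called replication gene in limma (0 of 43 for PTK7-1, against 1.23% of all genes, and 0 of 43 for PTK7-2, against 2.15%). At an unadjusted p under 0.05 there were 10 of 43 for PTK7-1 (23.3%), against 12.9%, and 9 of 43 for PTK7-2 (20.9%), against 16.8%. Differences below 0 numbered 29 of 43 for PTK7-1 (67.4%), against 46.4%, and 21 of 43 for PTK7-2 (48.8%), against 42.3%. Without the H1299 PTK7-2 array, the PTK7-2 count became 38 of 43. MCM6 stood at -0.54 under PTK7-1 and -0.48 under PTK7-2, MCM7 at -0.62 and -0.08, FEN1 at -0.05 and -0.64, and CCNE1 at 0.72 and 0.07. Between the control hairpins no replication gene was called (0 of 43, against 0% of all genes), and limma gave 4 of 43 at an unadjusted p under 0.05 (9.30%), against 3.65%. GFP minus LUC was below 0 for 25 of 43 (58.1%), against 52.8%, and for 14 of 43 without the H1299 GFP array. PCNA had the widest gap between them, at 7.76 under GFP and 8.76 under LUC in H1299 and at 8.68 and 9.07 in H2009, and it read 8.22 and 8.83 under PTK7-1 and PTK7-2 in H1299 and 8.88 and 8.68 in H2009. The control gap for PCNA, -0.69 ± 0.24 for GFP minus LUC (limma adjusted p = 1.00), was wider than its averaged PTK7 difference of 0.09.

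**Figure D4:**
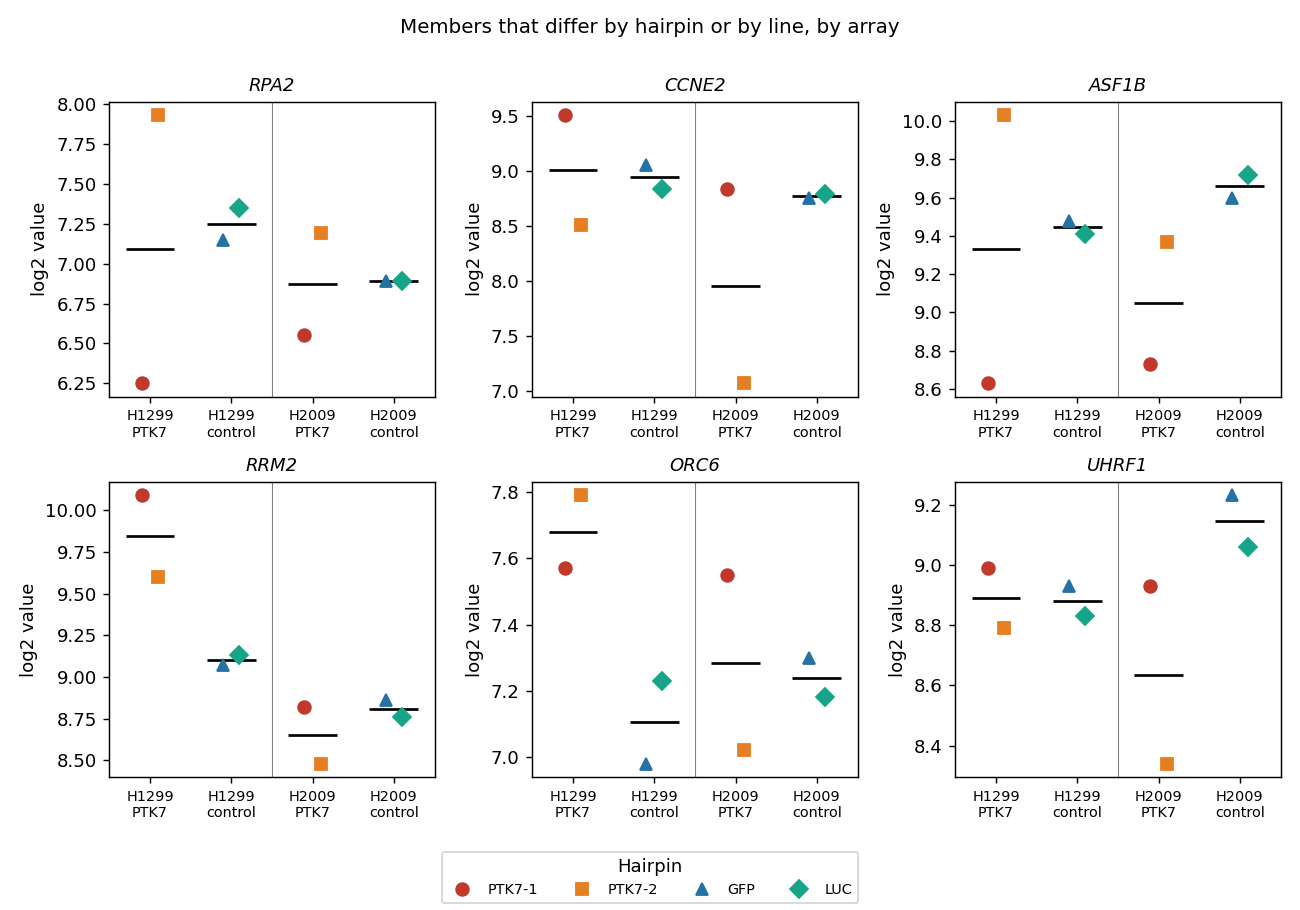
Points are single arrays for RPA2, CCNE2, ASF1B, RRM2, ORC6 and UHRF1 on a log2 axis whose range differs between panels, with PTK7 hairpins left of controls in each line, marker shape for the hairpin and bars for the mean of 2 arrays. RPA2 and CCNE2 have the PTK7 arrays on opposite sides of the controls in both lines, while RRM2 has both PTK7 arrays above the controls in H1299 only.

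Under the control hairpins the lines differed in the level of some replication genes. Of the 43, 6 were called by limma (14.0%), against 24.8% of all genes, with 5 higher in H1299 (11.6%, against 12.5% of all genes) and 1 lower (2.33%, against 12.3%). With the hairpin as a replicate block, 12 of 43 were called (27.9%), against 31.3% of all genes, the added ones being CDT1, GINS3, DBF4, ORC1, RFC3 and TK1. At an unadjusted p under 0.05 there were 14 of 43 (32.6%), against 35%, and 18 of 43 were lower in H1299 (41.9%), against 41.5%. MCM7 read 10.84 and 11.01 in H1299 under GFP and LUC, against 9.54 and 9.51 in H2009, a difference of 1.40 ± 0.25, or 2.63-fold higher (limma adjusted p = 0.00628). PRIM1, the catalytic subunit of primase, read 9.45 and 9.54 in H1299, against 8.53 and 8.48 in H2009, a difference of 0.99 ± 0.16 (limma adjusted p = 0.00502). These 2 genes had gaps several times their SE. RFC2, POLE and TYMS were also called, by 0.73, 0.68 and 0.48, and RRM1 was lower in H1299, at -0.51. CDT1, the loading factor that geminin inhibits, read 7.85 and 8.09 in H1299, against 7.06 and 7.24 in H2009, and was just outside the threshold at 0.82 ± 0.25 (limma adjusted p = 0.0520).

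The replication genes with the largest values on the H2009 side were TK1, PCNA and RFC3, none of them called without a block. TK1 read 9.27 and 9.25 under GFP and LUC in H1299, against 9.94 and 9.84 in H2009, a difference of -0.63 ± 0.27 (limma adjusted p = 0.153). PCNA differed by -0.62 ± 0.35 (limma adjusted p = 0.266), with a range from -1.12 to -0.12 when single arrays were left out, and RFC3 by -0.58 ± 0.25 (limma adjusted p = 0.144). MCM6 did not separate the lines, with a difference of 0.00 ± 0.14. The count of calls moved with single arrays: it was 2 without either H2009 control array, 3 without either H1299 control array and 13 without either H1299 PTK7 array.

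**Figure D5:**
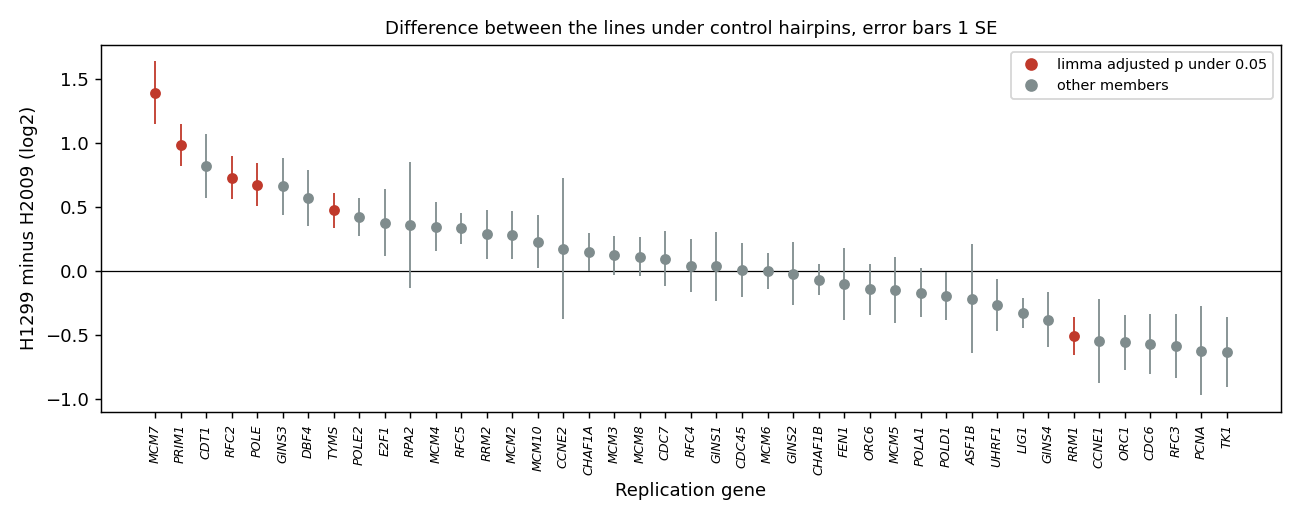
The H1299 minus H2009 log2 difference under control hairpins, with bars of 1 SE, for the 43 replication genes in order of size. Red points passed the limma threshold: MCM7, PRIM1, RFC2, POLE and TYMS above 0 and RRM1 below it.

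Neighbouring parts of the S-phase programme had mixed values, and limma called none of their genes in the averaged comparison. Of 37 other replication proteins, 27 had a difference below 0 (44.2% of all genes did), with a median of -0.11. Those at an unadjusted p under 0.05 were 8 lower and 1 higher, where 5.14% of all genes were lower and 4.74% higher. CHTF8, part of an alternative clamp loader, differed by -0.56 ± 0.13, CLSPN, a fork checkpoint mediator, by -0.48 ± 0.15, and TIMELESS, a fork protection protein, by -0.32 ± 0.10, while POLE3, a histone-fold subunit of polymerase epsilon, differed by 0.78 ± 0.25. Of 11 genes of nucleotide and histone supply, 8 were below 0. DUT, which removes dUTP, differed by -0.91 ± 0.23: it read 6.28 under PTK7-1 and 7.36 under PTK7-2 in H1299, against 8.02 under GFP and 7.84 under LUC. In H2009 DUT read 6.40 and 6.80 under PTK7-1 and PTK7-2, against 7.40 and 7.21 under GFP and LUC. The DUT groups were apart in both lines (limma adjusted p = 0.272). DCK, a salvage kinase, differed by 0.36, the histone chaperone NASP by -0.32 and the maintenance methyltransferase DNMT1 by -0.28.

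Of 20 further regulators of E2F and the S-phase cyclins, 11 were above 0 and 9 below, with a median of 0.03. RBL2, a pocket protein that represses E2F targets, differed by -0.93 ± 0.25 and RB1 by -0.34 ± 0.14, while cyclin D1 (CCND1) differed by 0.91 ± 0.36 and the phosphatase CDC25A by 0.52 ± 0.21 (limma adjusted p between 0.278 and 0.479). The 25 mitosis genes had a median PTK7 minus control difference of 0.25 in H1299, where 4 were below 0 and 21 above, and of -0.17 in H2009, where 20 were below, set against 50.6% of all genes below 0 in H1299 and 43.9% in H2009. Their difference between the lines was above 0 for 25 of 25 (45.3% of all genes), with 5 at an unadjusted p under 0.05 (5.17% of all genes) and 0 called by limma. The H1299 control arrays themselves differed for these genes. Relative to the control mean, their median was -0.09 under GFP, with 20 of 25 below it, and 0.09 under LUC. It was 0.20 under PTK7-1 and 0.31 under PTK7-2 there. The part of single arrays in the 25 of 25 was not tested. KIF23, a kinesin of cell division, averaged 0.32 ± 0.08 and the ubiquitin-conjugating enzyme UBE2C 0.34 ± 0.13, against values of -0.38 for the centromere protein CENPF and 0.29 for the furrow protein ANLN.

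Set against the controls one hairpin at a time, several of these neighbours passed the threshold, including CHTF8 and TICRR from the list of other replication proteins. None of the genes followed here as the replication machinery did. The neighbouring lists held 37, 11, 20 and 25 genes, and the calls named below are not given as a share of them. Whether the neighbours were called more often than the replication machinery genes was not tested. Under PTK7-1, limma called RBL2 lower, at -1.36 (adjusted p = 0.00849), the histone acetyltransferase HAT1 lower, at -1.42 (adjusted p = 0.00849), and DUT lower, at -1.28 (adjusted p = 0.0226), and E2F5 higher, at 0.78 (adjusted p = 0.0432). Under PTK7-2, it called SLBP, which binds the stem-loop of histone mRNAs, lower, at -1.04 (adjusted p = 0.00814), the origin firing factor TICRR lower, at -0.80 (adjusted p = 0.0254) and CHTF8 lower, at -0.74 (adjusted p = 0.0340), and CCND1 higher, at 1.39 (adjusted p = 0.0185). These calls stand beside 1.23% of all genes for PTK7-1 and 2.15% for PTK7-2, and both comparisons share the same control arrays. HAT1, E2F5, SLBP and TICRR were chosen after their values were seen.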

How the data were processed

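The deposited data are log2 values, 1 for each probe set of an Affymetrix array hybridised with biotin-labelled total RNA. The authors used RMA under R 2.14.0, according to the submitters' processing notes, which compresses small differences of dim genes. The platform annotation gave a single gene symbol for 19158 of 32321 probe sets, several for 1388 and listed no symbol for 11775. Where a gene had several probe sets (637 genes) the brightest was used, which left 18404 genes.

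All genes entered limma 3.58.1 in R 4.3.3 (lmFit and eBayes), with p-values adjusted by Benjamini and Hochberg's method and a threshold of 0.05. The 4 groups of line and target each had a mean, and all 8 arrays shared the estimate of spread. Single hairpins were tested with hairpin and line as additive terms. The scripts were tested on simulated data. The number of arrays limits the precision. Replicates are arrays of the same line and target that carry different hairpins. Because each hairpin was used in both lines, per the labels, arrays could be paired by hairpin. Over all genes, their deviations from the group mean correlated between the lines, at r = 0.230 (GFP and LUC) and r = 0.407 (PTK7-1 and PTK7-2). Over the 43 replication genes, r was 0.53 (GFP and LUC) and 0.72 (PTK7-1 and PTK7-2). The paired fit, with a replicate block for the hairpin, gave 12 calls for the lines under control hairpins, and the unpaired one 6. PTK7 against control is a comparison between hairpins, and there the paired fit leaves the spread between hairpins out of its error. Other alternatives were a random hairpin effect, quantile normalization, median centring, no genes among the dimmest 40%, averaged probe sets, a trended prior and each array left out.

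The replication genes, the other lists and the tests were chosen with earlier results of these data known. Values on every array were given for members past the threshold in a PTK7 comparison, the 6 with the smallest unadjusted p in the averaged comparison, the 3 smallest in each line, in the difference of the lines and between the PTK7 hairpins, and the 3 largest per direction between the lines under control hairpins. Up to 4 genes were named for each neighbouring list. MCM2, MCM4, MCM7, CHAF1B and RFC3 were given on single arrays by role or by the separation of their arrays, after their values were seen. DUT, from a neighbouring list, was also given on single arrays with its values known. Promoters came from RefSeq, build GRCh38.p14. The hairpin sequences were not used here.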

Additional observations from a re-analysis of the deposited data

Results flagged for a closer look

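RPA2 and CCNE2 differed between the PTK7 hairpins, in a test of that difference over both lines. RPA2 stood at -1.16 ± 0.23 for PTK7-1 minus PTK7-2 (limma adjusted p = 0.0395), lower under PTK7-1 in 2 of 2 lines. CCNE2 stood at 1.38 ± 0.29 (limma adjusted p = 0.0483), higher under PTK7-1 in 2 of 2 lines. The H1299 PTK7-1 array decided much of the RPA2 value, which was -0.77 without it, and the H2009 PTK7-2 array much of the CCNE2 value, which was 0.84 without it. What sets the hairpins apart was not tested.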

How the results depend on the processing

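Over 753 values under alternative settings, no recomputed difference of a single gene changed sign, but medians over the members that lay near 0 did. Single-gene differences were recomputed only for the comparisons that a gene was named for, chosen for a small p or a large difference. Differences near 0 were therefore not checked gene by gene. The hairpin block, the random hairpin effect and the trended prior leave a difference unchanged by construction. With single arrays left out, the median ran from -0.09 to 0.12 for PTK7 hairpins against controls in H1299, from -0.02 to 0.11 between the lines under control hairpins and from -0.11 to 0.07 for GFP minus LUC. With the hairpin as a replicate block, 12 members were called between the lines under control hairpins, against 6, and the block changed no other count of called members. Called members for PTK7-1 minus PTK7-2 numbered 4 without the dimmest 40% of genes and 4 with a trended prior, against 2. The trended prior also called 2 members for PTK7-1 and 1 for PTK7-2 against the controls, where the default prior called 0. Members with both PTK7 arrays below both controls in H2009 numbered 16 after quantile normalization and 17 after median centring, against 20, and in H1299 they numbered 6 and 7, against 5. Quantile normalization gave 5 members with both PTK7 arrays above both controls in H1299, against 3, and median centring gave 1 in each line, against 0. Leaving out single arrays gave 2 to 13 called members between the lines under control hairpins, 0 to 4 for PTK7-1 minus PTK7-2, and 0 to 1 for each PTK7 hairpin against the controls. Members with a lower value then numbered 10 to 19 for the difference of the lines (median 0.0516 to 0.342), 16 to 38 for PTK7-2 against the controls (median -0.19 to 0.15) and 14 to 30 for GFP minus LUC, and the median of PTK7-1 minus PTK7-2 ran from -0.27 to 0.12. The causes were not tested. ASF1B was called between the PTK7 hairpins under median centring, without the dimmest genes, with the trended prior and without the H2009 PTK7-2 array. With 2 arrays a group, single arrays limit what can be called.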
